A study of Sus scrofa with 8 samples.

Results

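The nuclear genes of the mitochondrial respiratory chain were followed across sorted T cells of pig colostrum, the milk of the first hours after birth, and of pig blood. Members were all genes of the array whose platform symbol begins with NDUF, UQCR or ATP5, or names a succinate dehydrogenase subunit (SDHA to SDHD), CYC1, or a nuclear cytochrome c oxidase subunit of the COX4 to COX8 series. The rule found 27 genes, on 116 probes, among 4527 genes with a symbol, and it used no measured value. Each gene was read from its brightest probe, and 26 of the 27 were among the 3716 genes tested. The remaining gene, COX8H, the heart-type subunit 8, was not above background in any of the 8 samples and failed the filter on dim probes.

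The samples came from 2 Large White x Landrace sows. There were 4 groups of 2 samples, 1 per sow: CD8 single positive cells (CD3+/CD4-/CD8+) and double positive cells (CD3+/CD4+/CD8+) of colostrum, and the same populations of blood. Double positive cells with a mature phenotype are a regular part of the pig's blood T cells. Titles name both populations for the double positive samples, and the sort and the design text settled their group. Animal age and the time of collection were not used here. All RNA was amplified from 10 ng. Colostrum samples carried Alexa Fluor 3 and blood samples Alexa Fluor 5 with no exchange of dyes, so dye and source cannot be told apart in any colostrum against blood comparison. Comparisons of the populations within 1 source do not cross dyes.

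The respiratory chain sits in the inner mitochondrial membrane. Complexes I and II pass electrons from NADH and succinate to ubiquinone, complex III passes them to cytochrome c, and complex IV hands them to oxygen. The proton gradient this builds drives ATP synthase, complex V. T cells in a resting state rely largely on this route, and activated T cells add aerobic glycolysis to it. Most subunits are encoded in the nucleus, a smaller set in mitochondrial DNA. In a sorted population, fewer cells of one kind and less RNA per cell cannot be told apart.

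Of the 27 genes, 23 were above the negative controls in all 8 samples. The exceptions besides COX8H were NDUFAB1, COX7A1 and NDUFA4L2. By complex the tested genes were 4 of complex I (NDUFAB1, NDUFB8, NDUFB9, NDUFC1), 3 of complex II (SDHA, SDHB, SDHD), 2 of complex III (UQCR10, UQCRB), 6 of complex IV (COX6A1, COX6B, COX6C, COX7A1, COX7A2, COX7C) and 9 of complex V. The last 2 were NDUFA4, which was first assigned to complex I and later placed in complex IV, and its relative NDUFA4L2, a target of hypoxia-inducible factor in other mammals. Several core subunits, such as NDUFS1, UQCRC1, CYC1, COX4I1 and COX5A, were not analysed here. Their absence leaves complexes I and III represented by small accessory subunits.

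Levels are on the normalized log2 intensity scale throughout, and differences are log2 differences with limma's standard error. A probe's level depends on its own sequence, so levels are compared between samples and never between genes. The number of arrays limits the precision: the median standard error of a member's 2-group difference was 0.50, and the median 95% interval reached 1.13 to either side, a 2.18-fold change. Raw channels differed before normalization. Median intensity was 118 to 133 units in colostrum and 27 to 34 in blood, the 99th percentile 4543 to 6448 in colostrum and 7779 to 10928 in blood, and the negative-control median 68 to 81 in colostrum and 1 to 8 in blood. Within the 4 groups, the sows' median absolute difference over the 26 members was 0.39 to 0.55, against 0.57 to 0.66 over all genes. Of the sort genes, CD3D, CD3E, CD3G, CD247 and CD8A were above background in all 8 samples and CD8B in the 4 CD8 single positive samples only. CD4 was at 7.81 and 6.90 in colostrum and 8.68 and 8.77 in blood double positive cells, and the colostrum sample of sow 2 was not above background.

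**Figure D1:**
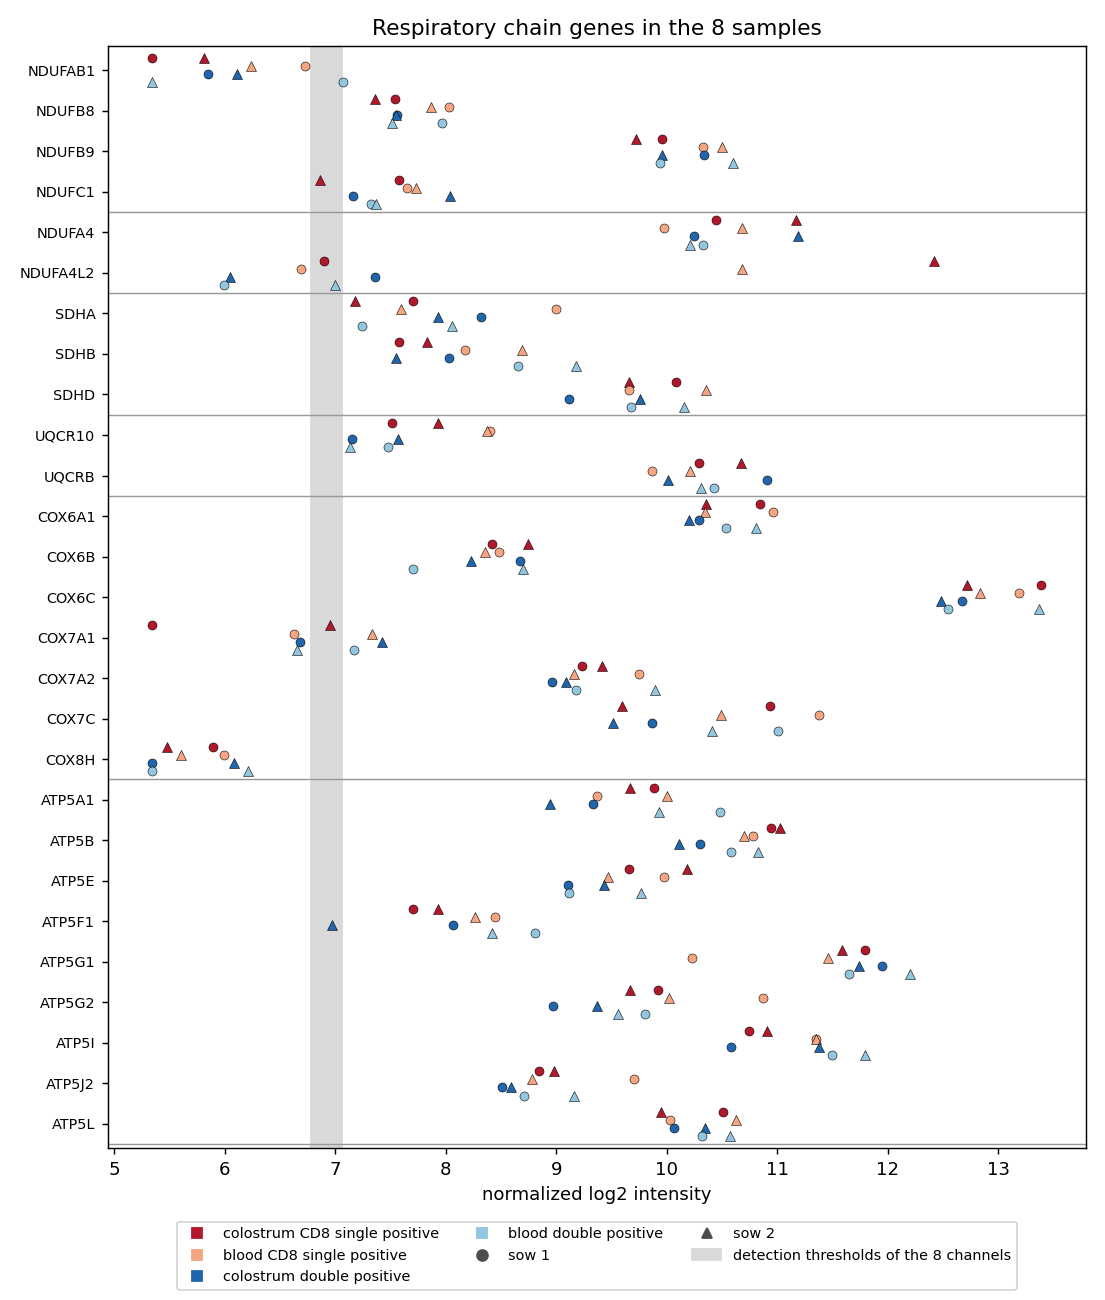
Normalized log2 intensity of the 27 genes (rows, by complex from I at the top to V at the bottom, with NDUFA4 and NDUFA4L2 apart) in the 8 samples, circles for sow 1 and triangles for sow 2. The grey band spans the detection thresholds of the 8 channels, 6.78 to 7.06, and 23 genes lie above the thresholds in all samples.

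In CD8 single positive cells, colostrum was compared with blood, the study's stated question for this population. The respiratory chain genes were mostly somewhat lower in colostrum, by less than the error of single genes. Of 26 members, 9 were higher and 17 lower, with a median difference of -0.23. Over the 23 genes above background in all samples the range was from -0.85 to 0.84. Over all genes the median was -0.06 and 46.5% were higher. No member passed limma's test at an adjusted p under 0.05, and neither did any gene of the array (0% called). The smallest adjusted p of a member was 0.797, for ATP5G1. At an unadjusted p under 0.05 there were 0 members, where 7.83% of all genes were.

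Complex I values were lower in colostrum in CD8 single positive cells, short of the test. NDUFB9, an accessory subunit of the membrane arm, was at 9.96 and 9.72 in colostrum against 10.33 and 10.50 in blood, a difference of -0.58 ± 0.48 (limma SE, n = 2 each; adjusted p = 0.842). Its 3 measured probes were all lower, between -0.69 and -0.51. NDUFB8, of the same arm, was at 7.54 and 7.36 in colostrum against 8.03 and 7.86 in blood. NDUFC1, a small accessory subunit, was at 7.57 and 6.86 in colostrum against 7.65 and 7.73 in blood. The colostrum samples of all 3 genes lay below both blood samples. NDUFAB1, the mitochondrial acyl carrier protein, was not above background in either group and is given no fold. The 3 measured complex I genes were lower under the other normalizations too, but with all probes of a gene averaged 1 of 3 turned higher.

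Succinate dehydrogenase, which also works in the citric acid cycle, had SDHA and SDHB among the lowest members. SDHB, the iron-sulfur subunit, was at 7.58 and 7.83 in colostrum against 8.17 and 8.69 in blood, with no overlap (difference -0.73 ± 0.49, adjusted p = 0.805). Its 2 measured probes differed in sign, at -0.73 and 0.20, so the lower value belongs to the brightest probe. SDHA, the flavoprotein that oxidises succinate, was at 7.70 and 7.18 in colostrum against 8.99 and 7.59 in blood, where sow 1 alone set most of the difference of -0.85 ± 0.60 (adjusted p = 0.809). The membrane anchor SDHD differed by 0.43 in sow 1 and -0.70 in sow 2. In complex III, the small subunit UQCR10 was at 7.51 and 7.93 in colostrum against 8.40 and 8.37 in blood (difference -0.66 ± 0.47, adjusted p = 0.809). These samples did not overlap either.

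The complex IV genes differed little in CD8 single positive cells, with a median of -0.09 over 6 genes. COX7C, a small structural subunit, was the exception among those above background, at 10.93 and 9.60 in colostrum against 11.38 and 10.49 in blood (difference -0.67 ± 0.60, adjusted p = 0.868), and its 3 measured probes lay between -0.73 and -0.54. The colostrum sample of sow 1 lay above the blood sample of sow 2, so the groups overlapped. COX7A1, the heart and muscle isoform of subunit 7A, was at 5.34 (the floor) and 6.95 in colostrum against 6.62 and 7.33 in blood, with 1 of 2 samples above background on each side. Its ubiquitous partner COX7A2 was at 9.23 and 9.41 in colostrum against 9.74 and 9.16 in blood.

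ATP synthase was split in CD8 single positive cells: 4 of 9 genes were higher and 5 lower in colostrum. ATP5G1, which encodes subunit c of the rotor ring, was at 11.79 and 11.58 in colostrum against 10.23 and 11.46 in blood. Its difference of 0.84 ± 0.54 was 1.56 in sow 1 and 0.12 in sow 2. ATP5G2, another gene for the same subunit c, differed the other way, at 9.92 and 9.67 in colostrum against 10.87 and 10.02 in blood (difference -0.65 ± 0.50, adjusted p = 0.823). The catalytic core differed by less than its error. ATP5B, the beta subunit, was at 10.94 and 11.02 in colostrum against 10.78 and 10.70 in blood, and ATP5A1, the alpha subunit, differed by 0.09 ± 0.49. Of the 26 members, 3 were higher and 9 lower in colostrum without overlap between the groups, and the 9 include NDUFAB1, below background. Over all genes, 16.3% were higher and 21.5% lower without overlap.

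In double positive cells, the ATP synthase genes and SDHB had lower values in colostrum than in blood, again short of the test. Of 26 members, 8 were higher and 18 lower, with a median of -0.23 and a range from -1.12 to 0.48. Over all genes the median was -0.09 and 44.9% were higher. In both sows 13 members were lower, and 0 were higher in both. limma called 0 members and 0% of all genes. At an unadjusted p under 0.05 there was 1 member, SDHB, against 8.5% of all genes. Without overlap, 0 members were higher and 10 lower, against 14.6% and 23.1% of all genes. The lower count is a larger share of the members than of all genes, but the members are not independent replicates and the share was not tested. Some of the markers moved in the same comparison. CD3G, a chain of the T cell receptor complex, was at 10.54 and 8.05 in colostrum against 10.74 and 11.32 in blood, and CD247, its zeta chain, at 9.40 and 8.49 in colostrum against 10.86 and 10.54 in blood. The summed level of the 7 genes of T cells and the sort was 13.36 and 12.63 in colostrum against 13.68 and 13.48 in blood. GP9, a platelet glycoprotein, was at 7.69 and 8.52 in colostrum against 9.55 and 9.35 in blood double positive cells. In CD8 single positive cells GP9 was also lower, at 7.98 and 7.87 in colostrum against 9.10 and 9.09 in blood. PPBP, the other red cell and platelet marker with a symbol, was not above background in any sample. It was at 5.34 and 6.23 in colostrum against 5.34 and 5.34 in blood double positive cells, so it did not share the direction of GP9. CD3G, CD247, CD4 and GP9 were lower in colostrum double positive cells without overlap. The neutrophil marker S100A8, at 6.77 and 6.48 in colostrum against 7.04 and 9.05 in blood, and LALBA were lower too. Other markers were higher in colostrum without overlap. KLRK1, an NK and gamma delta T cell marker, was at 9.07 and 8.26 in colostrum against 7.26 and 7.79 in blood. CD79A, a B cell marker, was at 6.59 and 9.48 in colostrum against 6.31 and 6.40 in blood. CD3D, at 11.96 and 11.42 in colostrum against 11.95 and 11.69 in blood, overlapped, as did CD3E and CD8A. CD8B, not above background in double positive cells, was at 5.99 and 5.94 in colostrum against 5.34 and 5.37 in blood. The part of the markers in the members' values was not tested.

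All 9 ATP synthase genes were lower in colostrum double positive cells, with a median of -0.50, and 8 of them were lower in both sows. The catalytic alpha subunit gene ATP5A1 was at 9.33 and 8.94 in colostrum against 10.48 and 9.93 in blood, a difference of -1.07 ± 0.49 or 2.10-fold (adjusted p = 0.611). Both colostrum samples lay below both blood samples, and 11 of its 12 measured probes were lower. The median over those 12 probes was -0.43, so the value of -1.07 belongs to the brightest probe. ATP5F1, subunit b of the peripheral stalk, was at 8.07 and 6.97 in colostrum against 8.81 and 8.42 in blood (difference -1.09 ± 0.52, adjusted p = 0.622), with all 5 measured probes lower and a median over them of -0.50. ATP5B was at 10.30 and 10.11 in colostrum against 10.58 and 10.83 in blood, a difference of -0.50 ± 0.45, with 7 of 9 probes lower and a median of -0.33. ATP5I, the small subunit e, was at 10.58 and 11.38 in colostrum against 11.49 and 11.79 in blood. The remaining genes of the complex lay between -0.51 (ATP5G2) and -0.08 (ATP5G1). The count of 9 held under the other normalizations tried and became 7 of 9 when all probes of a gene were averaged.

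SDHB was at 8.03 and 7.55 in colostrum against 8.65 and 9.17 in blood double positive cells. The difference was -1.12 ± 0.49, or 2.18-fold, with a 95% interval from -2.22 to -0.03, an unadjusted p of 0.0455 and an adjusted p of 0.586 in the limma fit. The groups did not overlap. The gene's 3 measured probes were all lower but ranged from -1.12 to -0.07, and the mean over all 8 of its probes, measured or not, differed by 0.15. In the same complex, SDHD differed by -0.48 ± 0.51 and SDHA by 0.48 ± 0.60. SDHA was at 8.31 and 7.93 in colostrum against 7.24 and 8.05 in blood.

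Of complex IV, COX7C was at 9.86 and 9.51 in colostrum against 11.00 and 10.41 in blood double positive cells (difference -1.02 ± 0.60, adjusted p = 0.706). The groups did not overlap. Its 3 measured probes were lower, but between -1.02 and -0.34, with a median of -0.36. COX6A1, the ubiquitous isoform of subunit 6A, was at 10.29 and 10.20 in colostrum against 10.54 and 10.81 in blood, and its 5 measured probes lay between -0.48 and -0.18. COX7A2 was at 8.96 and 9.09 in colostrum against 9.17 and 9.90 in blood. The complex I genes were mixed in these cells. NDUFB8 differed by -0.19, NDUFB9 by -0.12 and NDUFC1 by 0.25, and none of the 3 kept its sign in both sows. NDUFAB1, above background in 1 of the 8 samples, is given no difference.

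**Figure D2:**
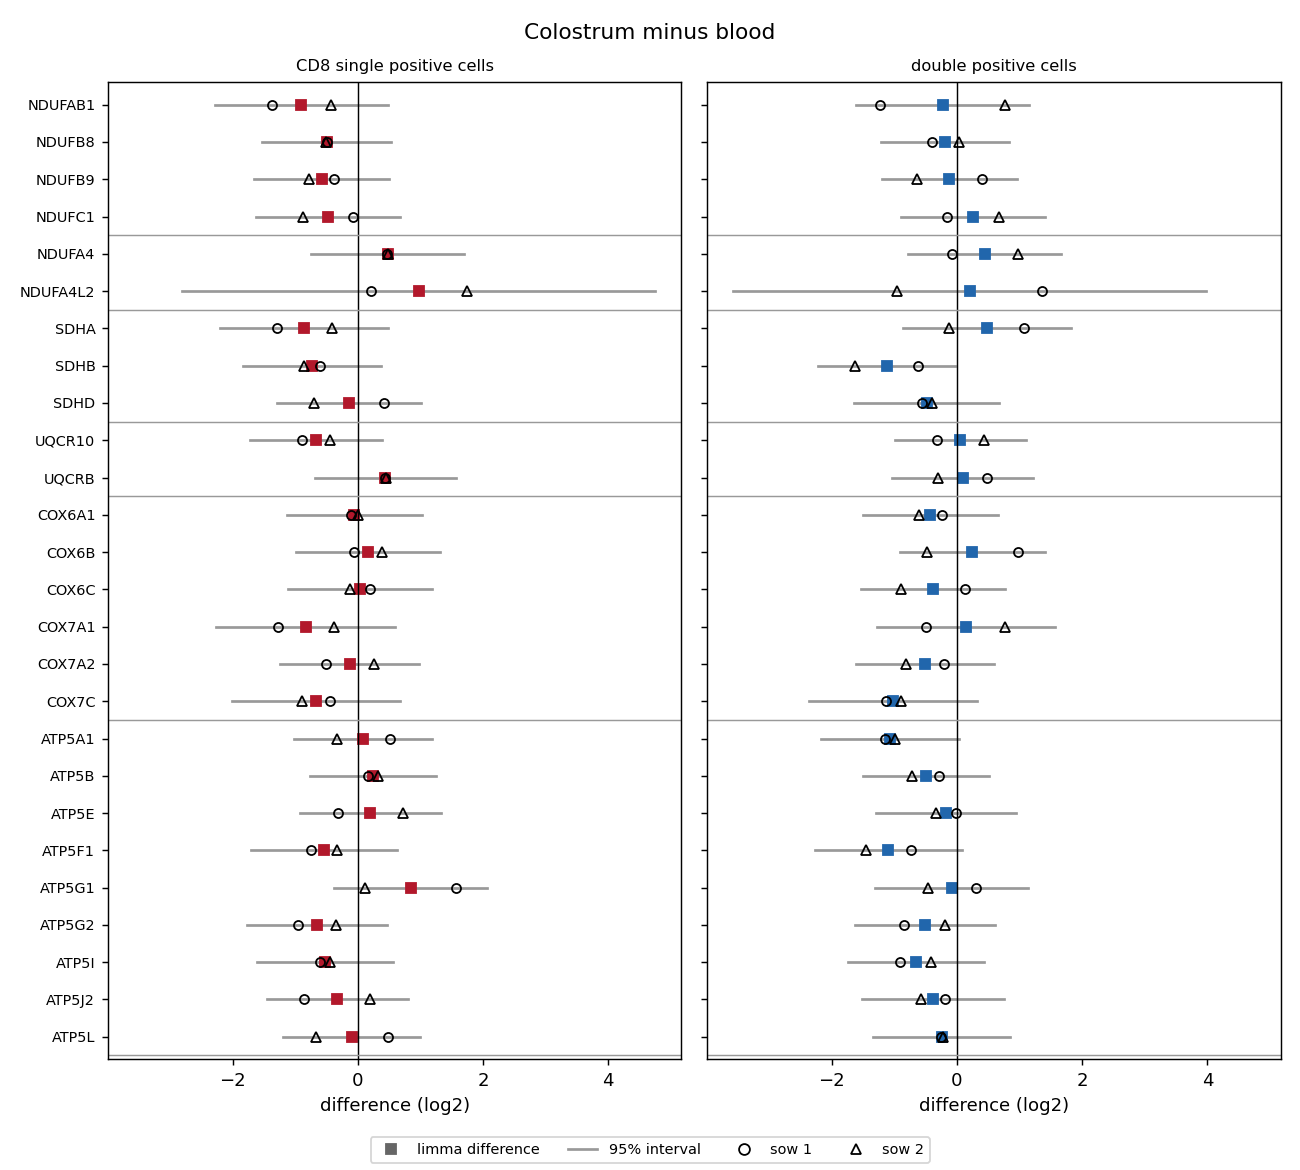
Colostrum minus blood difference (log2) of the 26 tested genes in CD8 single positive cells (left panel) and double positive cells (right panel). Squares are limma differences with 95% intervals, circles sow 1 and triangles sow 2. All 9 ATP synthase genes at the bottom of the right panel lie below 0, and of the 52 intervals only that of SDHB in double positive cells leaves out 0.

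NDUFA4 and UQCRB stood apart from the other members through their probes. NDUFA4 was at 10.45 and 11.17 in colostrum against 9.97 and 10.68 in blood in CD8 single positive cells. In double positive cells it was at 10.24 and 11.18 in colostrum against 10.33 and 10.20 in blood. Its 6 probes were all higher in colostrum, by 0.48 to 0.83 in CD8 single positive and by 0.36 to 0.57 in double positive cells. UQCRB, a subunit of complex III near the ubiquinone site, was at 10.29 and 10.67 in colostrum against 9.86 and 10.21 in blood for CD8 single positive cells, without overlap. All 7 of its probes were higher there, by 0.44 to 1.07, and all 7 were higher in double positive cells, by 0.09 to 0.75. In sow 2 only 4 of the 7 were higher in double positive cells. Probes of 1 gene share its RNA and are no replicates, and limma's adjusted p was 0.902 for both genes in CD8 single positive cells. The sign depended on the scaling: with each channel scaled to its 75th percentile, 0 of 6 NDUFA4 and 0 of 7 UQCRB probes were higher in either population. Over all members, 37 of 78 measured probes were higher in colostrum CD8 single positive cells and 25 of 77 in colostrum double positive cells.

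**Figure D3:**
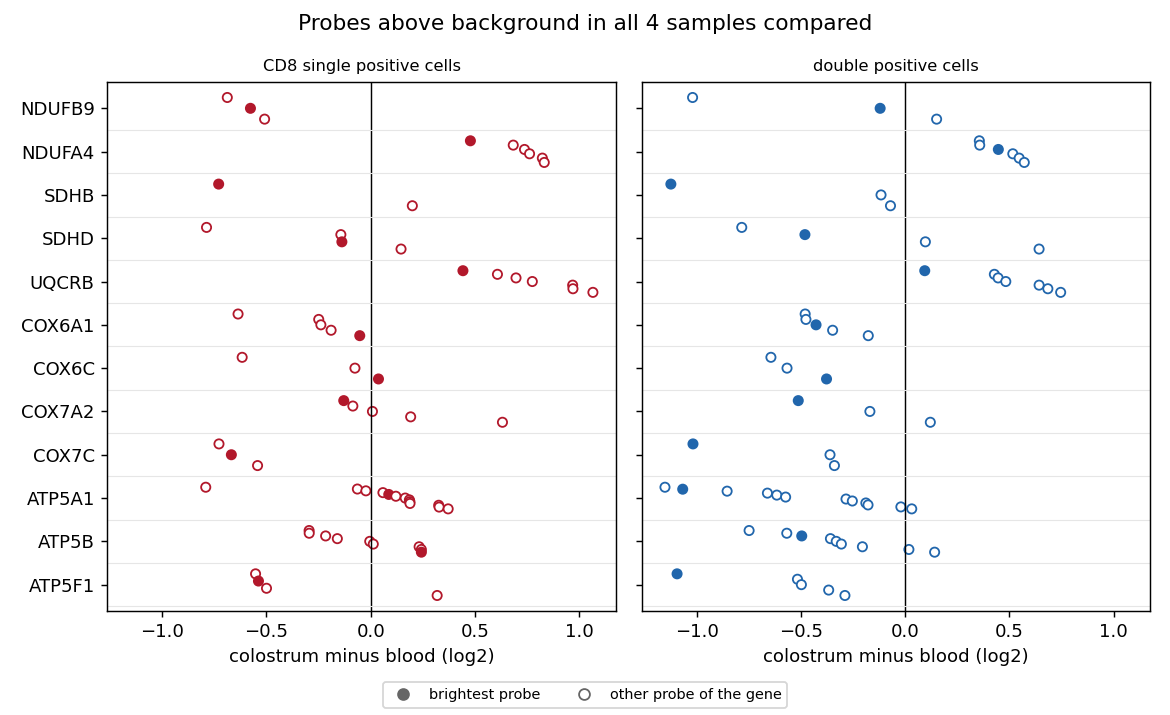
Colostrum minus blood difference (log2) of every probe above background in all 4 samples compared, for genes with at least 3 such probes in either population. Filled points are the brightest probe of a gene, open points its other probes. NDUFA4 and UQCRB have all their probes above 0 in both panels, and COX6A1 and COX7C have all theirs below 0.

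The scaling moved the median of the respiratory chain genes in the comparisons that cross dyes. With the quantile normalization used above, the members' median was -0.23 in both populations. With 75th percentile scaling it was -1.30 in CD8 single positive and -1.84 in double positive cells, while the median of all genes was -0.03 and -0.07. Under that scaling limma called 7 members lower in colostrum double positive cells, namely ATP5A1, ATP5B, ATP5I, COX6A1, COX6C, COX7C and SDHB, along with 281 genes lower and 8 higher in all. Subtracting each channel's negative-control median first, a step added after the data were seen, gave members' medians of -0.99 and -1.46 against -0.68 and -0.88 over all genes. ATP5A1 (-2.24) and SDHB (-2.08) were then called at an adjusted p of 0.0482 each. The members' median lay below that of all genes under each normalization plotted here, but its size in the comparisons of colostrum with blood cannot be told apart from the treatment of the dyes.

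**Figure D4:**
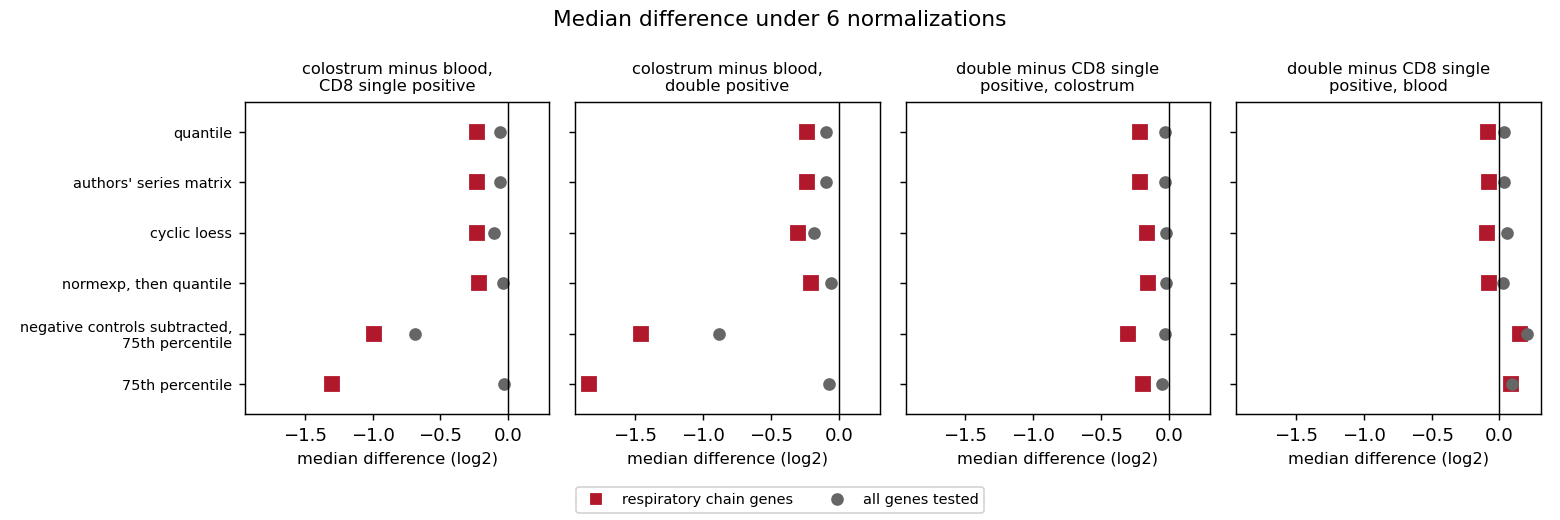
Median difference (log2) of the respiratory chain genes (red squares) and of all genes tested (grey circles) under 6 normalizations, for the 4 comparisons of 2 groups. In the left pair of panels, which cross dyes, the members' median runs from -0.20 to -1.84; in the right pair, within 1 dye, it stays between -0.30 and 0.15.

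The difference between the populations in the colostrum against blood contrast was fitted as an interaction, in which a dye effect common to both populations cancels. The members' median was -0.24 (9 higher, 17 lower) and that of all genes -0.06. limma called 0 members and 0% of all genes, and 0 members against 2.42% of all genes had an unadjusted p under 0.05. The smallest adjusted p of a member was 0.998, so for no member was the colostrum against blood difference shown to differ between the populations. The most negative values that agreed in sign between sows were in ATP synthase: ATP5A1 at -1.15 ± 0.69, ATP5G1 at -0.92 ± 0.77 and ATP5B at -0.74 ± 0.63. The most positive were SDHA at 1.33 ± 0.84, COX7A1 at 0.97 ± 0.90, measured in 1 of 2 samples of each group, and UQCR10 at 0.72 ± 0.66. By complex, 8 of 9 ATP synthase genes were negative, but only 3 of the 9 in both sows. The 3 measured complex I genes were positive. With all probes averaged, 6 of 9 ATP synthase genes were negative and 1 of 3 complex I genes positive.

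Within colostrum, double positive cells were compared with CD8 single positive cells, both in Alexa Fluor 3. Of complex V 7 of 9 genes and of complex IV 5 of 6 had lower values in double positive cells, and no gene passed the test. The count of complex V became 5 of 9 when all probes of a gene were averaged. Of 26 members, 9 were higher and 17 lower, with a median of -0.21 against -0.03 over all genes. Of all genes 48.1% were higher. limma called 0 members and 0% of all genes. At an unadjusted p under 0.05 there were 0 members, against 7.19% of all genes. Without overlap, 4 members were higher and 8 lower, against 16% and 17.9% of all genes, and NDUFAB1, below background in these samples, is among the 4.

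The ATP synthase core gave the clearest values of that comparison. ATP5B was at 10.30 and 10.11 in double positive against 10.94 and 11.02 in CD8 single positive cells of colostrum, a difference of -0.77 ± 0.45 (adjusted p = 0.776), with 8 of 9 probes lower and a median of -0.49. ATP5A1 was at 9.33 and 8.94 in double positive against 9.88 and 9.67 in CD8 single positive cells (difference -0.64 ± 0.49, adjusted p = 0.879), and all 12 measured probes were lower, with a median of -0.38. ATP5E, the epsilon subunit of the central stalk, was at 9.10 and 9.43 in double positive against 9.66 and 10.18 in CD8 single positive cells. None of these 3 genes overlapped between the populations, nor did ATP5G2 (-0.63 ± 0.50) and ATP5J2 (-0.36 ± 0.50), which encodes subunit f. ATP5G1 (0.16) and ATP5I (0.16) did not share the sign.

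In complex IV, COX6C, an accessory subunit, was at 12.68 and 12.48 in double positive against 13.39 and 12.72 in CD8 single positive cells of colostrum, without overlap and with its 3 probes lower. COX7C differed by -0.58 ± 0.60, by -1.07 in sow 1 and -0.09 in sow 2. COX7A1 was the highest of the members, at 6.68 and 7.42 in double positive against 5.34 (the floor) and 6.95 in CD8 single positive cells. Its groups overlapped, and 1 of 2 samples was above background on each side, so the difference of 0.90 ± 0.63 (adjusted p = 0.863) rests partly on unmeasured values. SDHA was at 8.31 and 7.93 in double positive against 7.70 and 7.18 in CD8 single positive cells, also without overlap (difference 0.68 ± 0.60, adjusted p = 0.901). NDUFB9 was at 10.34 and 9.96 in double positive against 9.96 and 9.72 in CD8 single positive cells. The 3 measured complex I genes differed by 0.10 to 0.38, but 1 of 3 was higher with all probes averaged. Of these, NDUFC1 differed by -0.41 in sow 1 and 1.18 in sow 2. Over all members, 58 of 73 measured probes were lower in double positive cells of colostrum.

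Within blood, the same comparison of populations lay in Alexa Fluor 5. The members' median was -0.08 (9 higher, 17 lower), against 0.03 over all genes. It was -0.26 in sow 1 and 0.10 in sow 2, so the sows did not share its sign, and under 75th percentile scaling it was 0.08. limma called 0 members and 0% of all genes, and 1 member, UQCR10, had an unadjusted p under 0.05, against 5.36% of all genes. Without overlap, 3 members were higher and 3 lower, against 17.8% and 15.7% of all genes.

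UQCR10 was at 7.47 and 7.13 in double positive against 8.40 and 8.37 in CD8 single positive cells of blood. The difference was -1.08 ± 0.47, or 2.12-fold, with an unadjusted p of 0.0442 and an adjusted p of 0.869 in the limma fit, and it rests on 1 probe. The 2 subunit c genes of ATP synthase differed in opposite directions. ATP5G1 was at 11.65 and 12.20 in double positive against 10.23 and 11.46 in CD8 single positive cells (difference 1.08 ± 0.54, adjusted p = 0.884). ATP5G2 was at 9.80 and 9.55 in double positive against 10.87 and 10.02 in CD8 single positive cells (difference -0.77 ± 0.50, adjusted p = 0.928). Neither gene overlapped between the populations, and each has 1 probe. UQCRB differed by 0.33 ± 0.50, with 7 of 7 probes higher, SDHB by 0.48 ± 0.49 and ATP5I by 0.29 ± 0.48. The 3 measured probes of SDHB ran from -0.29 to 0.48 with a median of 0.02, so its value belongs to the brightest probe. ATP5A1, lower in double positive cells of colostrum, was at 10.48 and 9.93 in double positive against 9.37 and 10.00 in CD8 single positive cells of blood, a difference of 1.11 in sow 1 and -0.07 in sow 2.

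**Figure D5:**
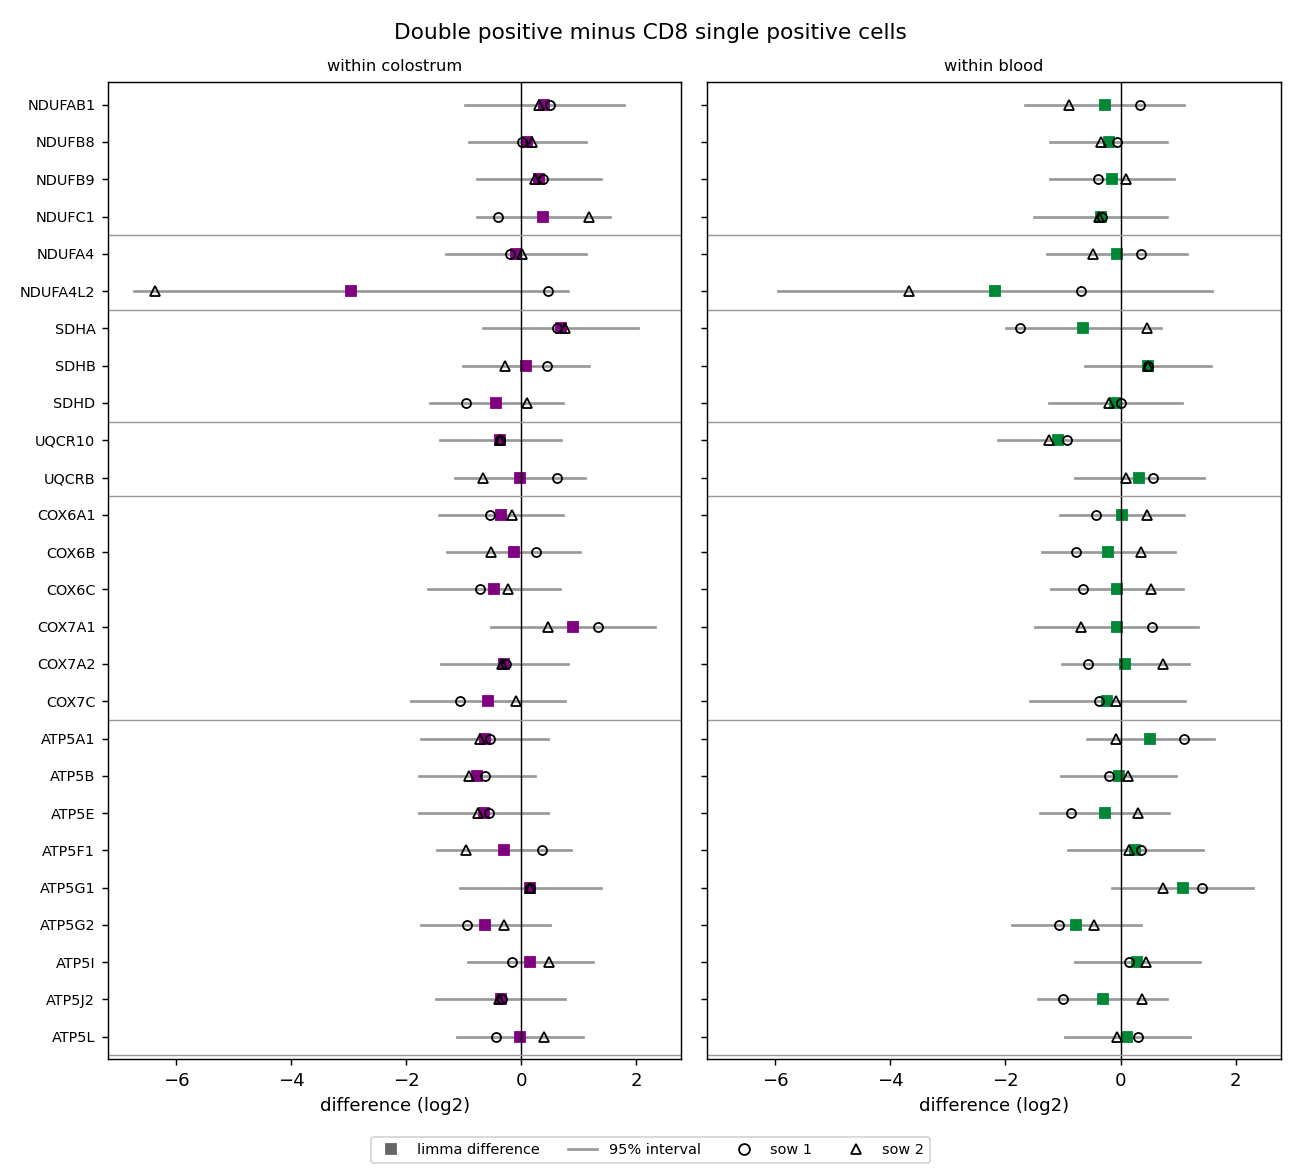
Double positive minus CD8 single positive difference (log2) of the 26 tested genes within colostrum (left panel) and within blood (right panel), with the same symbols as the colostrum minus blood plot. ATP5B, ATP5A1 and ATP5E lie below 0 in both sows within colostrum, and UQCR10 within blood is the gene whose interval leaves out 0; NDUFA4L2 has the widest intervals.

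NDUFA4L2 had the largest spread of the members. In CD8 single positive cells it was at 6.90 in sow 1 and 12.42 in sow 2 in colostrum. In blood it was at 6.69 and 10.68. In double positive cells it was at 7.36 and 6.04 in colostrum and at 5.99 and 7.00 in blood. The gene was thus high in both CD8 single positive samples of sow 2, across both sources and dyes, and near or below the detection threshold in the other 6 samples. The difference of double positive from CD8 single positive cells was -2.96 ± 1.68 in colostrum (adjusted p = 0.764). In blood it was -2.19 ± 1.68 (adjusted p = 0.99), at -0.69 in sow 1 and -3.68 in sow 2. Double positive cells of blood were not above background, and 1 of the 2 CD8 single positive samples was. The difference in blood therefore rests partly on unmeasured values. The gene's other probe did not show this pattern and was above background in 1 channel. CSN1S1, the milk protein alpha-S1-casein, was high in the same 2 samples, at 11.38 in colostrum and 8.60 in blood. In the CD8 single positive samples of sow 1 it was at 7.36 in colostrum and 5.58 in blood, and it lay between 5.34 and 6.15 in the double positive samples. The milk protein genes CSN2 and LALBA were not above background in any CD8 single positive sample. CSN3 and KRT8 were at 7.26 and 7.66 in the colostrum CD8 single positive sample of sow 2. They were at 7.62 and 7.44 in the colostrum double positive sample of sow 1. The summed level of the 6 mammary epithelial markers was 8.80 and 11.65 in colostrum CD8 single positive, and 8.54 and 9.74 in blood CD8 single positive cells. It was 9.45 and 8.65 in colostrum double positive and 9.47 and 9.03 in blood double positive cells. Where the sum was 11.65, CSN1S1 alone was at 11.38. None of the 6 was above background in all 8 samples, and KRT18 in none. Their part in the NDUFA4L2 values was not tested.

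Other mitochondrial genes give the surroundings of these values. Of the 13 subunits encoded in mitochondrial DNA, COX1 and COX3 were saturated in 4 of 8 channels each and ND6 in 2, and these 3 were left out of the medians after the data were seen. The other 10 had a median colostrum minus blood difference of -0.37 in CD8 single positive cells, -0.19 in sow 1 and -0.48 in sow 2. In double positive cells it was -0.36, at 0.01 in sow 1 and -0.88 in sow 2, so the sows did not share its sign. In each population 8 of the 10 were lower, 6 of them in both sows of the CD8 single positive and 4 in both sows of the double positive cells. CYTB, the mitochondrial subunit of complex III, was at 13.84 and 12.78 in colostrum against 14.50 and 14.58 in blood double positive cells (difference -1.23 ± 0.54, adjusted p = 0.586). None of the 13 passed the test, and 1, CYTB in double positive cells, had an unadjusted p under 0.05.

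Of the genes of pyruvate dehydrogenase and the citric acid cycle, 12 were tested, and FH was not analysed here. Their median difference was -0.32 in CD8 single positive and -0.65 in double positive cells. In double positive cells 10 of 12 were lower in colostrum, but only 5 in both sows. IDH3A and SUCLG1 were above background in 0 of 2 colostrum double positive samples. DLD, the lipoamide dehydrogenase of both steps, was at 9.42 and 9.51 in colostrum against 10.82 and 11.52 in blood double positive cells, a difference of -1.71 ± 0.48 (adjusted p = 0.392). These samples did not overlap, and 0 genes of the list passed the test in either direction.

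The carriers and porins, which exchange metabolites across the mitochondrial membranes, numbered 6 (SLC25A3, SLC25A6, UCP2, UCP3, VDAC1, VDAC2). Their median was -0.10 in CD8 single positive cells (3 higher, 3 lower) and -0.94 in double positive cells (0 higher, 6 lower). These counts include 2 genes near background. UCP3 was above background in 0 of 2 colostrum and 1 of 2 blood double positive samples. VDAC1 was above background in 1 of 2 samples of each double positive group and in no CD8 single positive sample. SLC25A6, an ADP/ATP carrier, was at 12.43 and 12.76 in colostrum against 13.76 and 13.88 in blood double positive cells (difference -1.22 ± 0.45, adjusted p = 0.505). UCP2, an uncoupling-type carrier of the inner membrane, was at 8.49 and 8.06 in colostrum against 9.93 and 9.67 in blood double positive cells (difference -1.52 ± 0.50, adjusted p = 0.445). Both lay lower in colostrum without overlap, and none of the 6 passed the test.

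Among 5 regulators of mitochondrial biogenesis, the median was -0.10 in CD8 single positive and -0.24 in double positive cells. PPRC1 and POLG were above background in 0 of 2 samples of each colostrum group. The value of -0.10 is that of SIRT3, above background in 1 of 2 colostrum and 0 of 2 blood CD8 single positive samples. SIRT1, a deacetylase that acts on the coactivator PGC-1alpha, was at 9.50 and 9.18 in colostrum against 7.48 and 8.31 in blood double positive cells, and at 9.14 and 9.56 in colostrum against 8.44 and 8.47 in blood for CD8 single positive cells. Its difference was 1.44 ± 0.49 in double positive (adjusted p = 0.47) and 0.89 ± 0.49 in CD8 single positive cells (adjusted p = 0.753). POLG, the mitochondrial DNA polymerase, was at 6.21 and 6.77 in colostrum, below the detection threshold, against 8.29 and 7.45 in blood CD8 single positive cells. TFAM, which packages mitochondrial DNA, differed by 0.11 in CD8 single positive and -0.24 in double positive cells. The 6 assembly factors and electron carriers had a median of -0.12 in CD8 single positive cells, 0.23 in sow 1 and -0.57 in sow 2. In double positive cells it was -0.86, 0.20 in sow 1 and -1.34 in sow 2, so the sows differed in sign in both populations. COX17, a copper chaperone of complex IV, differed there by 0.28 in sow 1 and -3.36 in sow 2. Cytochrome c itself, CYCS, differed by 0.55 ± 0.68 in CD8 single positive and 0.08 ± 0.68 in double positive cells, and no gene of either list passed the test.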

How the data were processed

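Sorted T cells of 2 sows were measured on oligonucleotide arrays, 8 samples in 4 groups. The deposited intensity of each of 45220 spots is a whole number, and values below 0 show that a background had been subtracted. How the arrays were scanned and corrected is not stated in the labels. The log2 values of the authors' deposited matrix cover 43603 probes and share 1 distribution over 8 columns. The matrix was used as an alternative and to choose each gene's brightest probe.

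Control spots were left out and spots of 1 probe averaged. Channels were quantile normalized, a floor of 40.6 units (5.34 on the log2 scale, the level of the 153 negative-control spots) was set, and log2 was taken. Of the tested values 10.9% lay at the floor. A probe counted as above background over the 95th percentile of the negative controls. Symbols came from the platform annotation, which names 10278 probes and leaves 33325 unnamed here. An accession matched a current RefSeq symbol for 18 members, all unchanged. Genes whose brightest probe averaged under the 30th percentile were not tested.

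limma (version 3.58.1, R 4.3.3) fitted 4 group means without a block (4 residual and 5.35 prior degrees of freedom). Benjamini-Hochberg adjusted p-values over 3716 genes under 0.05 were called, and steps were tested on simulated data. The sow pairs samples, since the labels' source names give the sow's number for each sample; deviations from the group means correlated at 0.29 (CD8 single positive) and 0.22 (double positive) between colostrum and blood and at -0.01 to 0.08 across populations.

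The members and gene lists were chosen with earlier results of these data known. Named genes are core subunits, up to 5 highest and 5 lowest members of like sign in both sows for a comparison (3 and 3 for the interaction), isoform partners and listed genes. Alternatives were other normalizations, floors, filters, probe summaries, blocks and leaving out each sample. Further members given by complex or for their probes, and the list genes given with values, were picked after their values were seen.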

Additional observations from a re-analysis of the deposited data

How the results depend on the processing

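No member passed the test in any comparison, and this held under every alternative tried except the 75th percentile scalings in double positive cells. There, colostrum against blood called 7 members lower (281 genes lower and 8 higher in all; members' median -1.84), and with negative controls subtracted first 2 members (128 genes lower; median -1.46). In CD8 single positive cells the members' median was -1.30 under 75th percentile scaling (2 genes called lower), -0.99 with negative controls subtracted first, -0.22 after normexp (2 genes higher, 2 lower), -0.14 without the filter, -0.13 with probes above the negative controls only, -0.21 with probes averaged and -0.13 with the floor at their 95th percentile (1 gene higher, 4 lower). That floor called 2 genes lower in double positive cells. A random block for samples of 1 sow and population called 1 gene higher and 2 lower in CD8 single positive cells, and 1 lower between the populations of colostrum. Between those populations the median was -0.16 with cyclic loess and with normexp (4 genes lower), -0.13 without the filter, -0.30 with probes above the negative controls (2 genes lower) and -0.30 with negative controls subtracted; the higher floor called 2 genes lower. Within blood, normexp called 3 genes lower, probes above the negative controls 1, and the higher floor 1 higher and 1 lower. The interaction's median was -0.51 with negative controls subtracted, -0.47 with 75th percentile scaling, -0.14 without the filter and -0.12 with probes averaged.

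Leaving out 1 sample at a time, the members' median ran from -0.43 to -0.17 in CD8 single positive cells (0 to 1 genes called higher), from -0.42 to -0.14 in double positive cells, from -0.28 to -0.04 for the interaction, from -0.28 to -0.17 within colostrum and from -0.20 to 0.08 within blood. In CD8 single positive cells it was -0.43 without blood sow 2, and in double positive cells -0.42 without blood sow 1. A lone sample was assumed to vary like the other groups. The fit with the sow as a block called 0 members and 0 genes in every comparison, so it changed no call. Without NDUFAB1, COX7A1 and NDUFA4L2, the medians were -0.14, -0.38, -0.34, -0.30 and -0.06 in the order CD8 single positive, double positive, interaction, within colostrum and within blood; over each gene's measured probes they were -0.17 and -0.18 for colostrum minus blood. The causes were not tested. In the 490 refitted values of the members per comparison, the sign differed from the value given in 20 to 40.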
